A study of Mus musculus with 10 samples.

Results

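Cytosolic heat shock response genes were described in primary mouse hepatocytes exposed to free fatty acids (FFAs) with or without Neurotropin (NTP), a drug given for chronic pain. The 10 genes were chosen by symbol for their known roles, with earlier results of these data known. All were found among the 18055 genes listed in any library. They were the regulator Hsf1, the HSP70 genes Hspa1a, Hspa1b and Hspa8, and the HSP90 genes Hsp90aa1 and Hsp90ab1. The others were the co-chaperones Dnajb1, Hsph1 and Bag3, and the small heat shock protein gene Hspb1. Hepatocytes of the C57BL/6 strain were kept in culture and sequenced in 5 groups of 2 libraries each. The groups were Vehicle, 200 µM palmitate (PA), 12 µM linoleate (LA), and each FFA after NTP (PA+NTP and LA+NTP). NTP was given for 1 h before the FFA, and the FFA for a further 24 h. The NTP dose was 0.4 Neurotropin units per mL, which is stated in the paper and not in the labels. No group received NTP without an FFA. The labels do not say that the 2 libraries of a group came from separate animals or cultures, so the p-values measure the spread between these libraries, which may be technical.

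The heat shock response is the program by which cells raise molecular chaperones when proteins misfold. Heat shock factor 1 binds heat shock elements in promoters of chaperone genes, and the chaperones it induces (HSP70, HSP90, J-domain proteins and small heat shock proteins) hold, refold or hand over damaged proteins. Some members, such as Hspa8 and Hsp90ab1, are made at high levels in unstressed cells, while others, such as Hspa1a and Hspa1b, are known as strongly inducible and near silent at rest.

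Depth, as the sum of expected counts (the estimated number of reads of each gene), was 18795990 and 26900384 in the Vehicle libraries, 13142588 and 39052570 under PA, and 32312383 and 23696170 under LA. It was 30743849 and 31901493 in PA+NTP and 35959385 and 60046937 in LA+NTP. The deepest library thus held 4.57 times the counts of the shallowest, and PA replicate 1 was the shallowest. Levels are given as FPKM, a read rate scaled for the length of the gene and the depth of the library, so that levels of different genes can be compared. A gene was called where edgeR's quasi-likelihood test gave a Benjamini-Hochberg adjusted p under 0.05 over the 14097 genes tested and the fold change was at least 1.5. The 10 members all passed the filter on low counts. Standard errors (SE) and 95% intervals were derived from the log2 fold change and the test statistic of the same fit. With 2 libraries against 2, a two-sided exact permutation test of a single value cannot go below p = 0.333, so no such test was run.

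The libraries differed in a property that bears on each member. Over 14020 genes, how far a gene stood above or below its own average followed the share of G and C in its transcript (GC content), with a Spearman rank correlation across genes of 0.424 and 0.388 in the Vehicle libraries, -0.471 and -0.482 under PA, and -0.572 and -0.565 under LA. The correlation was 0.407 and 0.345 in PA+NTP and 0.573 and 0.535 in LA+NTP. The sign thus separated the 4 libraries with an FFA alone from the other 6, and genes are not independent replicates, so these values are descriptions. The trend follows the groups, so a treatment and a library effect cannot be told apart in it. Values from a fit with the trend removed from each library are given beside the members.

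The label of the cells was checked against markers. The 8 hepatocyte markers, led by Alb (albumin), were detected in all 10 libraries, with a summed level of 3310.2 and 3119.5 FPKM in Vehicle, 2445 and 2209.96 under PA, 2993 and 2676 in PA+NTP, 3194 and 3155 under LA, and 3942 and 3717 in LA+NTP. Of these 8, 3 were called lower in PA than in Vehicle (Apoa1, Hnf4a and Ttr, named after their values were seen). The 6 Kupffer cell and macrophage markers summed to 205 and 205 FPKM in Vehicle, 201 and 236 under PA, 264 and 294 in PA+NTP, 123.1 and 128 under LA, and 179 and 192 in LA+NTP. Nearly all of this came from Cd68, a lysosomal protein that other cells also make, while the defining markers Adgre1 and Clec4f stayed at or below 1.12 and 0.29 FPKM. Of the 5 tested, 1 was called higher in PA than in Vehicle, Marco, and 1 lower in LA than in Vehicle, Cd68, both named after their values were seen. Marker sums of sinusoidal endothelial cells (28.3 to 41.4 FPKM), stellate cells and fibroblasts (19.4 to 23.6) and cholangiocytes (7.68 to 14.6) were lower, and those of lymphocytes at most 0.79 FPKM with Ms4a1 at 0 in each library. Calls among them moved with the groups as well. Of 7 stellate markers, 4 were called lower in PA than in Vehicle (median log2 fold change -0.62), 1 was lower in LA than in Vehicle, and 2 were higher with NTP under each FFA. Of 3 cholangiocyte markers tested, 1 was called lower in PA than in Vehicle and 1 higher in PA+NTP than in PA. The 1 lymphocyte marker tested was called higher in PA than in Vehicle, and 2 of the 5 Kupffer markers were higher in PA than in LA. In that comparison 2 of 8 hepatocyte markers (median -0.45) and 2 of 7 stellate markers (median -0.43) were called lower in PA, and in LA+NTP against LA 1 hepatocyte marker was called higher. Named after their values were seen, these were Col1a1, Pdgfrb, Reln and Lrat with PA, Col1a1 with LA, Col1a1 with NTP under both FFAs, with Pdgfrb under PA and Des under LA, then Krt19 and Sox9, and Ptprc. Likewise, they were Marco and Cd68, Apoa1 and Ttr, and Reln and Lrat in PA against LA, and Apoa1 in LA+NTP against LA. The part of these shifts in the results on heat shock genes was not tested, and in such bulk samples fewer cells of a type and less RNA per cell cannot be told apart.

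The comparison of PA with Vehicle asks what palmitate does to the cells. Hsp90aa1 and Hsph1 rose and Hsf1 fell. Thus 2 of 10 members were called higher, where 6.00% of all tested genes were, and 1 was called lower, where 8.92% were. The members' median log2 fold change was 0.13, beside -0.01 over all genes. The comparison of LA with Vehicle asks the same of linoleate. Here 1 member, Hsp90aa1, was called higher (3.53% of all genes) and 1, Hsf1, lower (7.11%), with a median of -0.06 beside -0.01.

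The comparisons of each FFA with and without NTP ask what the drug changes in loaded cells. In PA+NTP against PA, Hsf1 was called higher (1 member, with 8.74% of all genes) and Hsp90aa1 lower (1 member, with 5.11%), and the median was -0.16 beside 0.01 over all genes. In LA+NTP against LA, the 4 members Hsf1, Hspa1a, Hspb1 and Bag3 were called higher (11.7% of all genes) and Hsp90aa1 alone lower (7.57%), and the median was 0.16 beside 0.01. With the GC trend removed, of these calls of members that of Hsph1 with PA was still made and the others were not. Calls gained then were Hspa1a (1.37) and Hspa1b (0.63) higher with PA and Hspa1b higher with LA (0.63). Hspa1b was also called lower in PA+NTP than in PA (-0.75). With lists of 10 genes, 1 call more or less is a large change in the share. All these comparisons share libraries, since the PA and LA libraries stand in both an FFA comparison and an NTP comparison and the Vehicle libraries serve both FFAs.

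**Figure D1:**
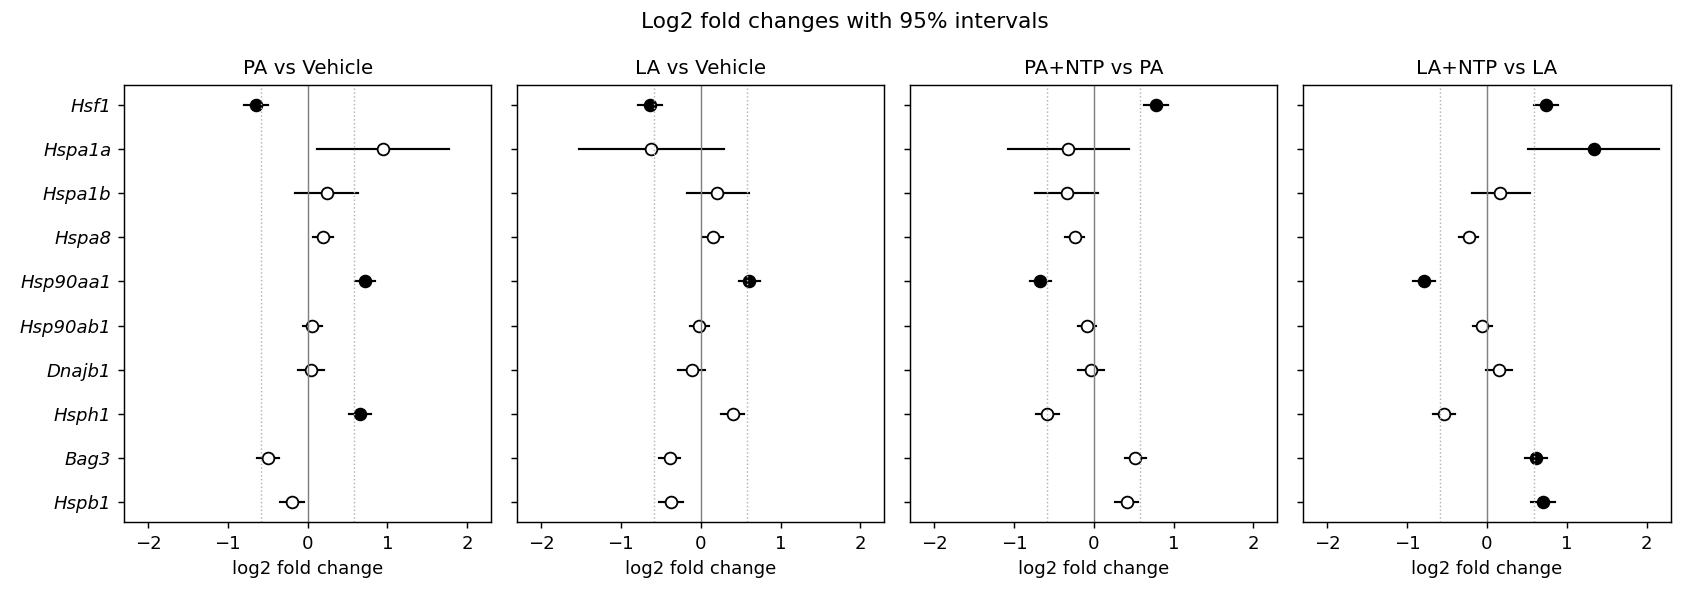
Log2 fold change (horizontal axis) of the 10 members in 4 comparisons, with 95% intervals of the edgeR fit as bars; filled points were called and dotted lines mark a fold of 1.5. Hsf1 and Hsp90aa1 were called in all 4 panels, on opposite sides of 0, and Hspa1a had the widest intervals.

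Hsf1 (NCBI gene 15499, at chr15:76477422-76501913 on the plus strand of GRCm38, like all positions here) encodes the transcription factor that turns on the heat shock response. Its level was 17.4 and 17.8 FPKM in Vehicle, 11.1 and 10.99 under PA, and 11.1 and 10.9 under LA. In PA+NTP it was 19.9 and 19.4, and in LA+NTP 19.1 and 18.7. The 4 libraries with an FFA alone were the lowest, and their range did not overlap that of the other 6. The GC trend split the libraries in the same way. How many of all genes showed such a split was not counted, here or for the other members. Hsf1 was 1.56-fold lower under PA than in Vehicle (log2 fold change -0.64, standard error 0.07, adjusted p = 1.05e-05 by edgeR's quasi-likelihood test with Benjamini-Hochberg adjustment). Under LA it was 1.55-fold lower, at -0.63 (SE 0.07, edgeR Benjamini-Hochberg adjusted p = 1.5e-05). With NTP it was 1.72-fold higher than under PA alone (0.78, SE 0.07, edgeR Benjamini-Hochberg adjusted p = 2.07e-06) and 1.67-fold higher than under LA alone (0.74, SE 0.07, edgeR Benjamini-Hochberg adjusted p = 1.32e-06). Its transcript is GC-rich (57.4%, against a median of 50.1% over tested genes), and the trend over all genes at that GC content was -0.35 in PA against Vehicle and 0.48 in LA+NTP against LA. With the trend removed the log2 fold changes kept their signs, at -0.29, -0.25, 0.41 and 0.25 in the order above, all under the fold of 1.5 and so not called.

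The genes Hspa1a (193740) and Hspa1b (15511) encode the inducible HSP70 and lie near each other on chromosome 17, at chr17:34969190-34972156 and at chr17:34956436-34959238, both on the minus strand. Of the 31-base stretches of Hspa1a transcripts, 63.8% also occur in those of Hspa1b, so reads of the pair can be split between them only in part and each gene's value is uncertain. Their promoter windows in RefSeq (GRCm38.p6, 250 bases before to 50 after the start) differ at 4 of 300 positions. They are shown because the near identity reaches into the regulatory sequence. Capitals mark a pair of heat shock element units at -104 from the start in both, and the windows are chr17:34972107-34972406 and chr17:34959189-34959488, written 5′ to 3′ on the minus strand.
Hspa1a: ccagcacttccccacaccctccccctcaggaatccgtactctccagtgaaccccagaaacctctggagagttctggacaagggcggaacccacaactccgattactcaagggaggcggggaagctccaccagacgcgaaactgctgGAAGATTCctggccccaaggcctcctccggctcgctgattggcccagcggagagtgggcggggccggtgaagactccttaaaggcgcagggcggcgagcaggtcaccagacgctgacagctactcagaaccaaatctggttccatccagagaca
Hspa1b: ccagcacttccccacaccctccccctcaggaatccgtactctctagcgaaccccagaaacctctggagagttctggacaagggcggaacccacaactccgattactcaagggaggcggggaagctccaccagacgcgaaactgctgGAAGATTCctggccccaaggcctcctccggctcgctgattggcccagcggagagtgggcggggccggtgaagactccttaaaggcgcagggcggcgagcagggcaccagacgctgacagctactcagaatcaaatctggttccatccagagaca

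Hspa1a was the least abundant member, with 13.1 to 113 expected counts per library. Its level was 0.25 and 0.54 FPKM in Vehicle, 1.03 and 0.60 under PA, and 0.62 and 0.65 in PA+NTP. It was 0.21 and 0.31 under LA, and 0.67 and 0.67 in LA+NTP. The PA, PA+NTP and LA+NTP libraries lay above both Vehicle libraries, and the LA libraries overlapped Vehicle. The libraries within Vehicle and within PA differed widely. LA+NTP was 2.53-fold higher than LA (log2 fold change 1.34, SE 0.38, edgeR Benjamini-Hochberg adjusted p = 0.00894). PA was 2.96-fold higher than LA (1.56, SE 0.40, edgeR Benjamini-Hochberg adjusted p = 0.0224), the 1 of 10 members called between the FFAs, where 1.18% of all genes were called higher in PA and 2.04% lower. These shares, 167 and 288 genes, fell to 99 and 142 without PA replicate 2, 115 and 159 without LA replicate 1, and 101 and 228 without LA replicate 2. PA against Vehicle gave 0.95 (SE 0.38) and was not called (edgeR Benjamini-Hochberg adjusted p = 0.0584). Single libraries decided these calls. PA against LA was not called without PA replicate 1 (1.2), LA replicate 1 (1.26) or LA replicate 2 (1.85), nor with limma on log2(FPKM + 1) (0.52). LA+NTP against LA was not called without LA replicate 1 (1.04), with that limma fit (0.41) or with the GC trend removed (0.76). With 0.1 added in place of 1 in that limma fit, Hspa1a was called in both comparisons. PA against Vehicle was called without Vehicle replicate 2 (1.67) or PA replicate 2 (1.37), with no filter on low counts (0.94), and with the GC trend removed (1.37), where the trend at the GC content of Hspa1a (58.9%) was -0.43. LA against Vehicle was -0.62 (95% interval -1.53 to 0.29) and PA+NTP against PA -0.32 (-1.08 to 0.44), and with the trend removed these were -0.16 and -0.77, not called either way. Their signs rested on single libraries, since the first was 0.11 without Vehicle replicate 2 and the second 0.03 without PA replicate 1.

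Hspa1b was more abundant, at 2.85 and 2.62 FPKM in Vehicle, 3.37 and 3.0 under PA, and 3.14 and 2.06 in PA+NTP. Under LA it was 2.85 and 3.30, and in LA+NTP 3.84 and 3.31. PA and LA+NTP lay above Vehicle and LA+NTP just above LA, PA+NTP overlapped Vehicle, PA and LA, and no comparison was called. Its log2 fold changes were 0.24 (95% interval -0.16 to 0.63) for PA and 0.21 (-0.17 to 0.60) for LA, both against Vehicle. With NTP they were -0.34 (-0.73 to 0.05) against PA and 0.17 (-0.19 to 0.54) against LA. The GC content of Hspa1b is 58.1%, and with the GC trend removed it was called higher in PA and in LA than in Vehicle (0.63 in both) and lower in PA+NTP than in PA (-0.75). LA+NTP against LA then changed sign, from 0.17 to -0.36, and was not called either way. With the trend left in, PA+NTP against PA was called without PA+NTP replicate 1 (-0.65). Summed into 1 feature, the pair had log2 fold changes of 0.36 (95% interval 0.00 to 0.71) for PA, 0.13 (-0.22 to 0.49) for LA, -0.34 (-0.69 to 0.01) for NTP under PA and 0.30 (-0.03 to 0.63) for NTP under LA, none of them called. PA against LA was 0.22 (-0.12 to 0.57) for the sum, so the calls of Hspa1a were not made for the sum of the pair.

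Hspa8 (gene 15481, chr9:40800984-40810087, plus strand) encodes the constitutive HSC70, which folds new proteins and uncoats clathrin vesicles. It was the most abundant member, at 2103 and 2170.4 FPKM in Vehicle, 2311 and 2468 under PA, and 2289 and 2319 under LA. PA+NTP had 2084 and 2121, and LA+NTP 2019 and 2027. The 4 libraries with an FFA alone were the highest, and the gap was small. Its log2 fold changes were 0.19 (SE 0.06) for PA, 0.15 (0.06) for LA, -0.24 (0.06) for PA+NTP against PA and -0.23 (0.06) for LA+NTP against LA. These passed edgeR's Benjamini-Hochberg adjusted threshold (adjusted p = 0.0119, 0.0417, 0.003 and 0.00368), and none reached the fold of 1.5. They were 0.29, 0.24, -0.33 and -0.33 with the GC trend removed, again under that fold. Hspa8 alone made up 47.5% to 50.4% of the members' summed FPKM, which was 0.815% to 0.986% of all FPKM in a library. Its level was 448 to 783 times the summed level of Hspa1a and Hspa1b. Other transcripts, mostly of pseudogenes, share 43.5% of its 31-base stretches, so its value is uncertain.

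Hsp90aa1 (gene 15519, chr12:110690605-110702728, minus strand) and Hsp90ab1 (gene 15516, chr17:45567775-45573271, minus strand) encode the cytosolic HSP90 chaperones, which mature kinases and steroid receptors. The first, HSP90α, is known as the inducible form and the second, HSP90β, as the constitutive one. Hsp90aa1 was at 453 and 478 FPKM in Vehicle, 738 and 763 under PA, and 690.3 and 683 under LA. It was at 473 and 510.2 in PA+NTP and at 406 and 414 in LA+NTP. The FFA libraries without NTP were the highest, clear of the other 6. The gene rose 1.65-fold with PA (log2 fold change 0.72, SE 0.06, edgeR Benjamini-Hochberg adjusted p = 1.09e-06) and 1.52-fold with LA (0.61, SE 0.06, edgeR Benjamini-Hochberg adjusted p = 6.44e-06). It was 1.59-fold lower in PA+NTP than in PA (-0.67, SE 0.06, edgeR Benjamini-Hochberg adjusted p = 2.06e-06) and 1.72-fold lower in LA+NTP than in LA (-0.79, SE 0.06, edgeR Benjamini-Hochberg adjusted p = 3.16e-07). The LA call lay near the fold threshold and was lost without Vehicle replicate 1 (0.57), with library-size scaling (0.56) and with limma on FPKM (0.56). Hsp90aa1 has the lowest GC content of the members (43.7%), where the trend over all genes was 0.22 for PA. With the trend removed it kept its sign at 0.51, 0.36, -0.44 and -0.48 in the order above, all under the fold of 1.5. Other transcripts, mostly of pseudogenes, share 51.4% of its 31-base stretches, so its value is uncertain.

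Hsp90ab1 was at 1256 and 1251 FPKM in Vehicle, 1298 and 1258 under PA, and 1175 and 1219 under LA. It was at 1249 and 1257 in PA+NTP and 1183 and 1184 in LA+NTP. The LA and LA+NTP libraries were the lowest and PA+NTP overlapped Vehicle. No comparison was called, with a log2 fold change of 0.06 (95% interval -0.06 to 0.18) for PA and -0.02 (-0.14 to 0.10) for LA. These were 0.14 and 0.06 with the GC trend removed, and the values with NTP were -0.16 under PA and -0.15 under LA, in place of -0.09 and -0.06. Other transcripts share 13.2% of its 31-base stretches. The ratio of Hsp90aa1 to Hsp90ab1, both in FPKM, was 0.361 and 0.382 in Vehicle, 0.569 and 0.606 under PA, and 0.587 and 0.560 under LA. In PA+NTP it was 0.379 and 0.406, and in LA+NTP 0.343 and 0.350. Hsp90ab1 was thus the more abundant gene in each library, and the ratio was highest in the 4 libraries with an FFA alone. The genes differ in GC content (43.7% for Hsp90aa1 and 51% for Hsp90ab1), and the GC trend was not removed from this ratio. At those contents the trend was 0.22 and -0.08 for PA against Vehicle.

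**Figure D2:**
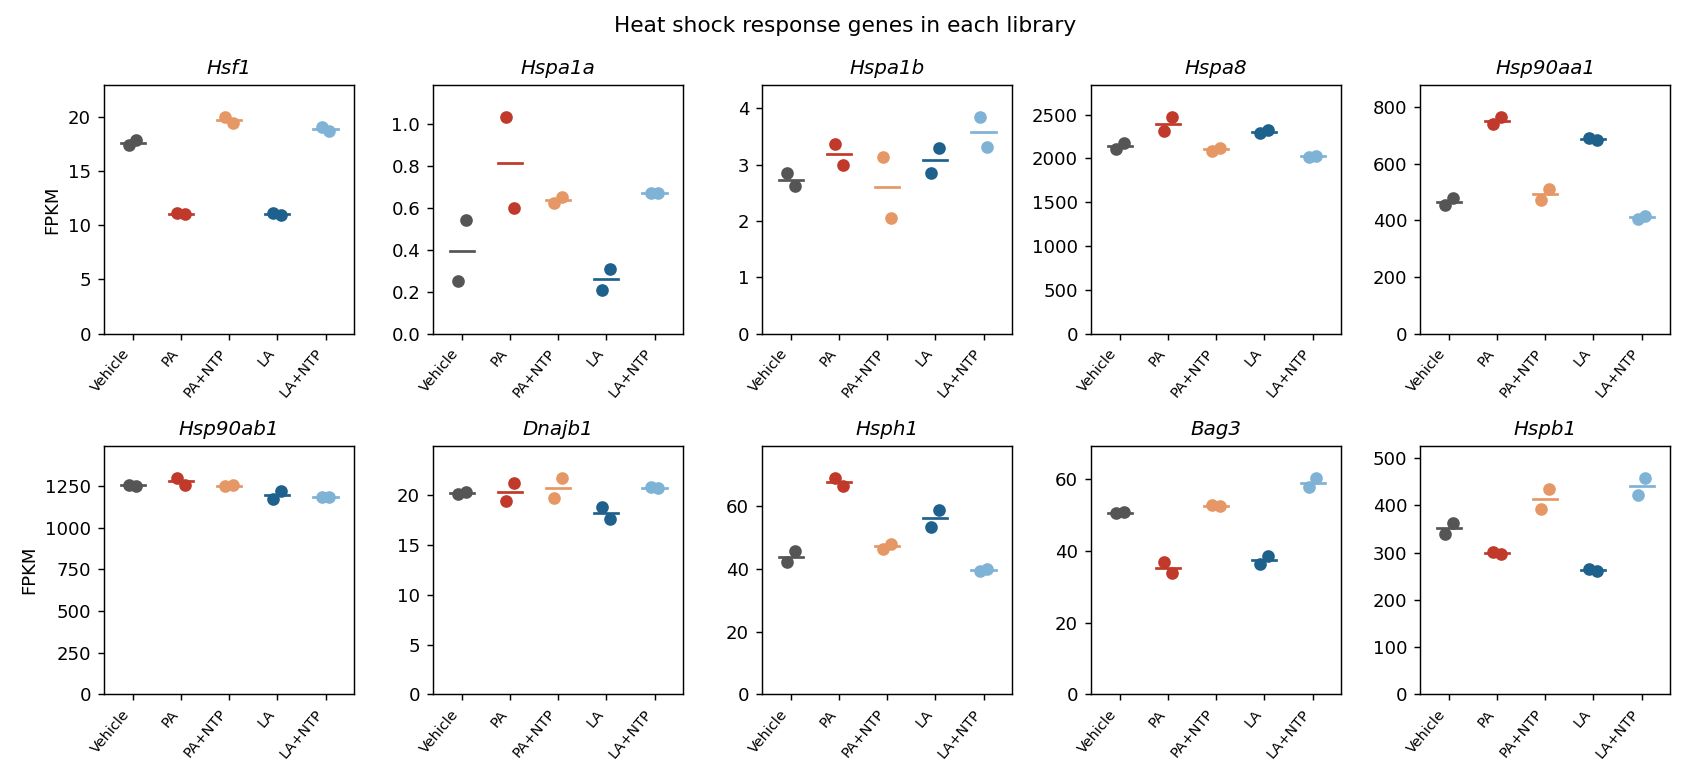
Level in FPKM (vertical axis, from 0) of each member in each of the 10 libraries; points are libraries and lines the mean of the 2 libraries of a group. Hsf1 and Bag3 were lowest and Hsp90aa1 and Hsph1 highest in the PA and LA groups, while Hsp90ab1 and Dnajb1 differed little between groups.

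Dnajb1 (gene 81489, chr8:83608193-83612653, plus strand) encodes HSP40, a J-domain protein that brings substrates to HSP70 and stimulates its ATPase. It was at 20.2 and 20.4 FPKM in Vehicle, 19.5 and 21.2 under PA, 18.9 and 17.6 under LA, 19.7 and 21.7 in PA+NTP, and 20.8 and 20.7 in LA+NTP. The LA libraries were the lowest, and the other 8 lay between 19.5 and 21.7. No comparison was called, and the log2 fold changes ran from -0.11 (LA against Vehicle, 95% interval -0.28 to 0.06) to 0.15 (LA+NTP against LA, -0.01 to 0.31) over these 4 comparisons. Both changed sign with the GC trend removed, to 0.04 and -0.04, while PA against Vehicle went from 0.04 to 0.20 and PA+NTP against PA from -0.04 to -0.19, again not called.

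Hsph1 (gene 15505, chr5:149614287-149636376, minus strand) encodes HSP110, a nucleotide exchange factor that helps HSP70 take protein aggregates apart. Its level was 42.2 and 45.8 FPKM in Vehicle, 69.0 and 66.6 under PA, and 53.5 and 58.8 under LA. NTP groups had 46.4 and 48.1 with PA and 39.4 and 40.02 with LA. The PA libraries were the highest, the LA libraries came next, and both lay above the other 6. Hsph1 rose 1.58-fold with PA (log2 fold change 0.66, SE 0.07, edgeR Benjamini-Hochberg adjusted p = 3.76e-06) and was called with the GC trend removed too (0.59), the trend being 0.06 at its GC content of 47.4%. LA against Vehicle was 0.40 (SE 0.07, edgeR Benjamini-Hochberg adjusted p = 0.00025), under the fold of 1.5. PA was higher than LA by 0.26 (SE 0.06, edgeR Benjamini-Hochberg adjusted p = 0.0199), also under that fold. NTP went with a lower level, at a log2 fold change of -0.58 (SE 0.06, edgeR Benjamini-Hochberg adjusted p = 9.18e-06) against PA alone and of -0.54 (SE 0.06, edgeR Benjamini-Hochberg adjusted p = 9.45e-06) against LA alone, just short of the fold. Without PA replicate 2 (-0.62), PA+NTP replicate 2 (-0.64) or LA replicate 2 (-0.59) the first of these was called, and without LA replicate 1 (-0.61) the second was. LA against Vehicle, with the GC trend removed, was 0.31 and the values with NTP -0.51 under PA and -0.43 under LA. No other transcript shares a 31-base stretch with Hsph1.

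Bag3 (gene 29810, chr7:128523616-128546981, plus strand) encodes a co-chaperone that links HSP70 to small heat shock proteins and to selective autophagy. It was at 50.5 and 50.8 FPKM in Vehicle, 36.7 and 33.8 under PA, and 36.3 and 38.5 under LA. It was at 52.7 and 52.3 in PA+NTP and 57.6 and 60.2 in LA+NTP. The 4 libraries with an FFA alone were the lowest, clear of the other 6. LA+NTP was 1.53-fold higher than LA (log2 fold change 0.62, SE 0.06, edgeR Benjamini-Hochberg adjusted p = 2.05e-06), and this call was lost without LA replicate 1 (0.57) or LA+NTP replicate 2 (0.58). PA gave -0.49 (SE 0.06, edgeR Benjamini-Hochberg adjusted p = 2.84e-05) and LA -0.39 (SE 0.06, edgeR Benjamini-Hochberg adjusted p = 0.000198) against Vehicle. PA+NTP against PA gave 0.52 (SE 0.06, edgeR Benjamini-Hochberg adjusted p = 1.61e-05), and these 3 were under the fold of 1.5. At its GC content of 56.1% the trend was -0.29 for PA and 0.40 for LA+NTP against LA, and with the trend removed the values were -0.20 and 0.22, neither called. LA against Vehicle and PA+NTP against PA were then -0.08 and 0.21. No other transcript shares a 31-base stretch with Bag3. The ratio of Hsph1 to Bag3 in FPKM was 0.836 and 0.901 in Vehicle, 1.88 and 1.97 under PA, and 1.47 and 1.53 under LA. It was 0.88 and 0.918 in PA+NTP and 0.684 and 0.665 in LA+NTP. Hsph1 was highest and Bag3 lowest in the PA and LA libraries, so this ratio restates both. The genes differ in GC content (47.4% and 56.1%), and the trend was not removed from the ratio.

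**Figure D3:**
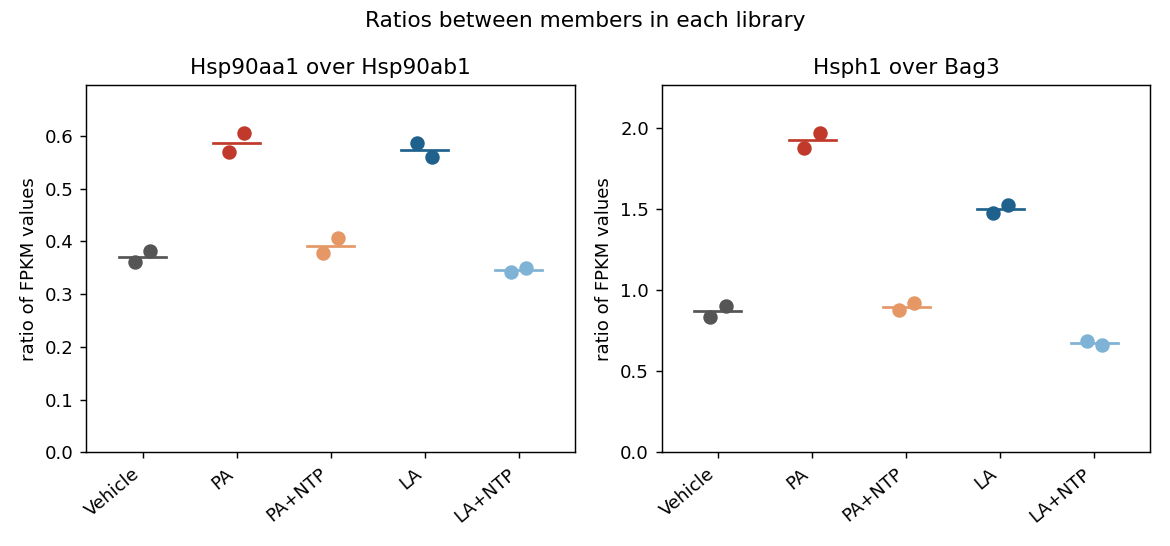
Ratio of FPKM values (vertical axis, from 0) of Hsp90aa1 to Hsp90ab1 and of Hsph1 to Bag3 in each library; points are libraries and lines group means. The PA and LA libraries lie above all others in both panels, from 0.560 to 0.606 in the left and from 1.47 to 1.97 in the right. The ratios restate the levels of their genes, with the GC trend left in.

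Hspb1 (gene 15507, chr5:135887919-135889563, plus strand) encodes a small heat shock protein (HSP25 in the mouse) that holds unfolded proteins and steadies actin filaments. It was at 340.2 and 362 FPKM in Vehicle, 301 and 298 under PA, and 266 and 261 under LA. PA+NTP had 393 and 435 and LA+NTP 423 and 458. The FFA libraries without NTP were below Vehicle, and those with NTP above it. LA+NTP was 1.62-fold higher than LA (log2 fold change 0.70, SE 0.07, edgeR Benjamini-Hochberg adjusted p = 1.75e-06), the call for this gene. The others were under the fold of 1.5, at -0.20 (SE 0.07, edgeR Benjamini-Hochberg adjusted p = 0.0294) for PA, -0.37 (SE 0.07, edgeR Benjamini-Hochberg adjusted p = 0.000667) for LA and 0.41 (SE 0.07, edgeR Benjamini-Hochberg adjusted p = 0.000234) for PA+NTP against PA. Hspb1 has the highest GC content of the members (60.7%). The trend over all genes there was -0.51 for PA, -0.55 for LA, 0.53 for PA+NTP against PA and 0.69 for LA+NTP against LA. With the trend removed the values became 0.31, 0.18, -0.12 and 0.01, so the sign changed in the first 3 and the LA+NTP call was lost. A pseudogene, Hsp25-ps1, shares 52.3% of its 31-base stretches, so its value is uncertain.

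**Figure D4:**
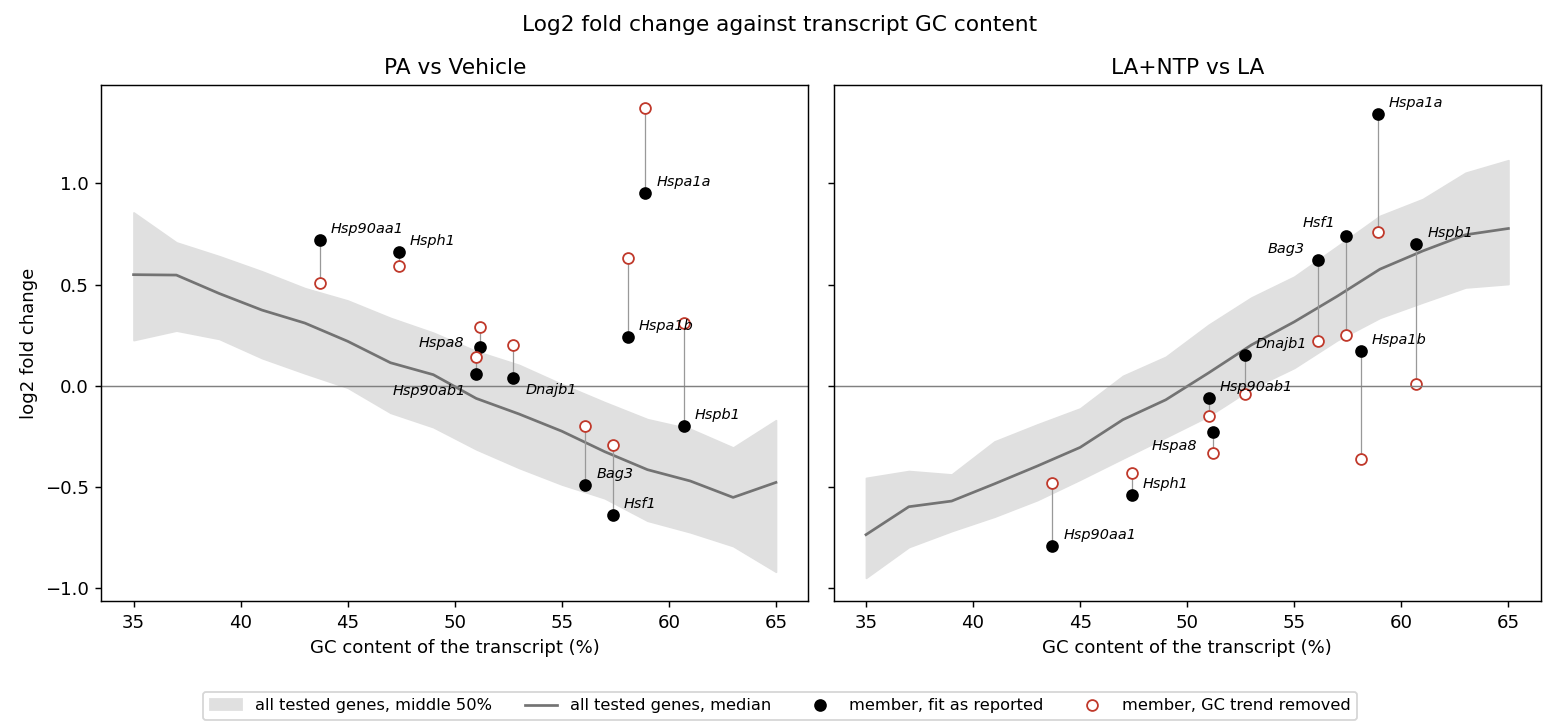
Log2 fold change (vertical axis) against GC content of the transcript (horizontal axis, %) for PA against Vehicle and LA+NTP against LA; the gray line and band are the median and the range from the lower to the upper quartile of all tested genes in bins of GC content, black points the members and open red points the same members with the GC trend removed. Hsp90aa1 and Hsph1, with the lowest GC content, sit opposite to Hsf1 and Bag3, and Hspb1 moves to 0.01 in the right panel.

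Between the NTP groups and Vehicle no member was called. The count was 0 of 10 in PA+NTP, where 1.21% of all genes were called higher and 1.64% lower, and 0 of 10 in LA+NTP, with 0.0567% higher and 0.0355% lower. For PA+NTP the 171 and 231 genes behind these shares fell to 96 and 123 without Vehicle replicate 1 and to 89 and 161 without Vehicle replicate 2. For LA+NTP the 8 and 5 genes moved with most single libraries, to 0 and 0 without Vehicle replicate 2, 17 and 10 without either PA+NTP library, and 39 and 28 with no filter on low counts. Cell type markers differed between these groups too. In PA+NTP against Vehicle, 2 of 5 Kupffer markers were called higher (median log2 fold change 0.85), 1 of 8 hepatocyte markers lower (median -0.50) and 1 of 6 sinusoidal endothelial markers lower (median -0.39). In LA+NTP against Vehicle 1 of 8 hepatocyte markers was called higher.

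By edgeR at an unadjusted p under 0.05, 1 member in PA+NTP and 5 in LA+NTP passed in these comparisons. Of all 14097 genes, 1725 higher and 1751 lower passed in PA+NTP, and 1021 and 993 in LA+NTP. DESeq2 and limma on log2(FPKM + 1) each called 0 members in both. The log2 fold changes for LA+NTP were 0.33 (95% interval 0.19 to 0.48) for Hspb1, 0.22 (0.09 to 0.36) for Bag3, 0.39 (0.01 to 0.76) for Hspa1b, -0.18 (-0.31 to -0.05) for Hsp90aa1 and -0.14 (-0.28 to 0.00) for Hsph1. For PA+NTP Hspb1 was at 0.21 (0.07 to 0.36). A missed call does not show that the values did not differ. Whether NTP acted differently with PA and with LA was tested as a difference of differences. It was called for 0 of 10 members and for 0% of all genes in either direction by edgeR (416 genes higher and 613 lower at an unadjusted p under 0.05, 1 and 4 called by DESeq2, 0 and 3 by limma on log2(FPKM + 1)). With no filter on low counts edgeR called 22 genes higher and 19 lower, and without PA replicate 2 it called 2 and 3, and without PA+NTP replicate 2 it called 1 and 1. Among members, 2 had an unadjusted p under 0.05, Hspa1a at -1.66 (95% interval -2.78 to -0.54) and Hspb1 at -0.29 (-0.50 to -0.08), and DESeq2 and limma called 0. The calls of Hspa1a, Hspb1 and Bag3 with NTP under LA and not under PA are thus not shown to differ between the FFAs.

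Promoter windows were found in RefSeq for 6 of the members, namely Hspa1a, Hspa1b, Hspb1, Dnajb1, Hsph1 and Bag3, and were searched for the element that heat shock factor 1 binds. The long form was 3 units, GAANNTTCNNGAA or TTCNNGAANNTTC, and the short form 2 units, GAANNTTC or TTCNNGAA, where N is any base. Both orders were searched, which covers both strands, and a long form holds overlapping short ones. Of 32851 windows of the same 300 bases, 0.603% held the long form and 15.1% the short form. Among the members, Hsph1 held the long form, 37 bases after the start, and 5 of 6 held the short form, Dnajb1 being the exception. The first window of a gene is given for the 3 members outside the HSP70 pair with a match, at chr5:149636287-149636586 on the minus strand for Hsph1, chr7:128523333-128523632 on the plus strand for Bag3 and chr5:135887669-135887968 on the plus strand for Hspb1. They are written 5′ to 3′ on the strand of the gene with matches in capitals.
Hsph1: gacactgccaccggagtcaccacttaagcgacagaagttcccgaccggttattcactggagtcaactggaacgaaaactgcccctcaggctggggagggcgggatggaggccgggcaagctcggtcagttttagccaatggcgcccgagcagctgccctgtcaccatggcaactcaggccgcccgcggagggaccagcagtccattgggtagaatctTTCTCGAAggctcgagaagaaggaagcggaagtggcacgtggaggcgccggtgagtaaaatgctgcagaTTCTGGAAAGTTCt
Bag3: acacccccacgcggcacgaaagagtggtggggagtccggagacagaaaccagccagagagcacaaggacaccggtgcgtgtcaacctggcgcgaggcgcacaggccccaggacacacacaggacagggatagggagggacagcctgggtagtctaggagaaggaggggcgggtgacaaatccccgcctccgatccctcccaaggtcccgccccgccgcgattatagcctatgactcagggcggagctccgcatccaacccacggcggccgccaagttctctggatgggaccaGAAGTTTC
Hspb1: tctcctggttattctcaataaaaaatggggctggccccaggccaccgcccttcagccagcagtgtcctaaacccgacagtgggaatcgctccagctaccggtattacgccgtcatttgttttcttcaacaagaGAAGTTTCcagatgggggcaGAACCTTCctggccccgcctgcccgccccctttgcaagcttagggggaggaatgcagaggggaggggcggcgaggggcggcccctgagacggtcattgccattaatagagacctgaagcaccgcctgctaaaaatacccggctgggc

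The short forms lie at -33, 37 and 42 from the start in Hsph1, at 43 in Bag3, and at -117 and -97 in Hspb1. A match is a description of letters and not evidence that a factor binds there.

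Across the 10 libraries, the gene most like a member (Pearson's r of log2 depth-scaled counts, among 11107 genes) was Naa15 for Hsp90aa1 (r = 0.998), Timm44 for Hsph1 (0.993), Ptms for Bag3 (0.993), Asah1 for Hspa8 (0.989), and Smad1 for Hspb1 (0.985). For the members that hardly moved or were scarce, r was lower, with Fam50a for Hsp90ab1 (0.961), Rbm22 for Dnajb1 (0.923), Zfyve21 for Hspa1b (0.889) and Rgs20 for Hspa1a (0.879). The 10 libraries fall into 5 groups and share the GC trend, so these are descriptions.

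The wider chaperone network was read from 9 lists of 76 genes, of which 75 were tested. In PA against Vehicle 18 were called higher (6.00% of all genes were) and 1 lower (8.92%), with a median of 0.32 beside -0.01 over all genes. In LA against Vehicle 8 were higher (3.53% of all genes) and 5 lower (7.11%), with a median of 0.18 beside -0.01. In PA+NTP against PA 4 were called higher (8.74% of all genes) and 16 lower (5.11%), with a median of -0.29. In LA+NTP against LA 6 were higher (11.7% of all genes) and 17 lower (7.57%), with a median of -0.20, beside 0.01 over all genes in both. None was called in either NTP group against Vehicle by edgeR or by DESeq2, with 18 and 19 at an unadjusted p under 0.05 in edgeR. Of all 14097 genes, 1725 higher and 1751 lower were at that p in PA+NTP, and 1021 and 993 in LA+NTP. With limma on log2(FPKM + 0.1), which tested 73 of the list genes, 1 was called lower in PA+NTP than in Vehicle. With the GC trend removed, 12 were called higher and 1 lower with PA, 1 and 3 with LA, 3 and 8 with NTP under PA, and 3 and 10 with NTP under LA. Calls over all 14097 genes fell as well, from 846 higher and 1257 lower to 529 and 662 with PA, and from 498 and 1002 to 146 and 306 with LA. With NTP they fell from 1232 and 721 to 512 and 361 under PA, and from 1651 and 1067 to 468 and 343 under LA.

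**Figure D5:**
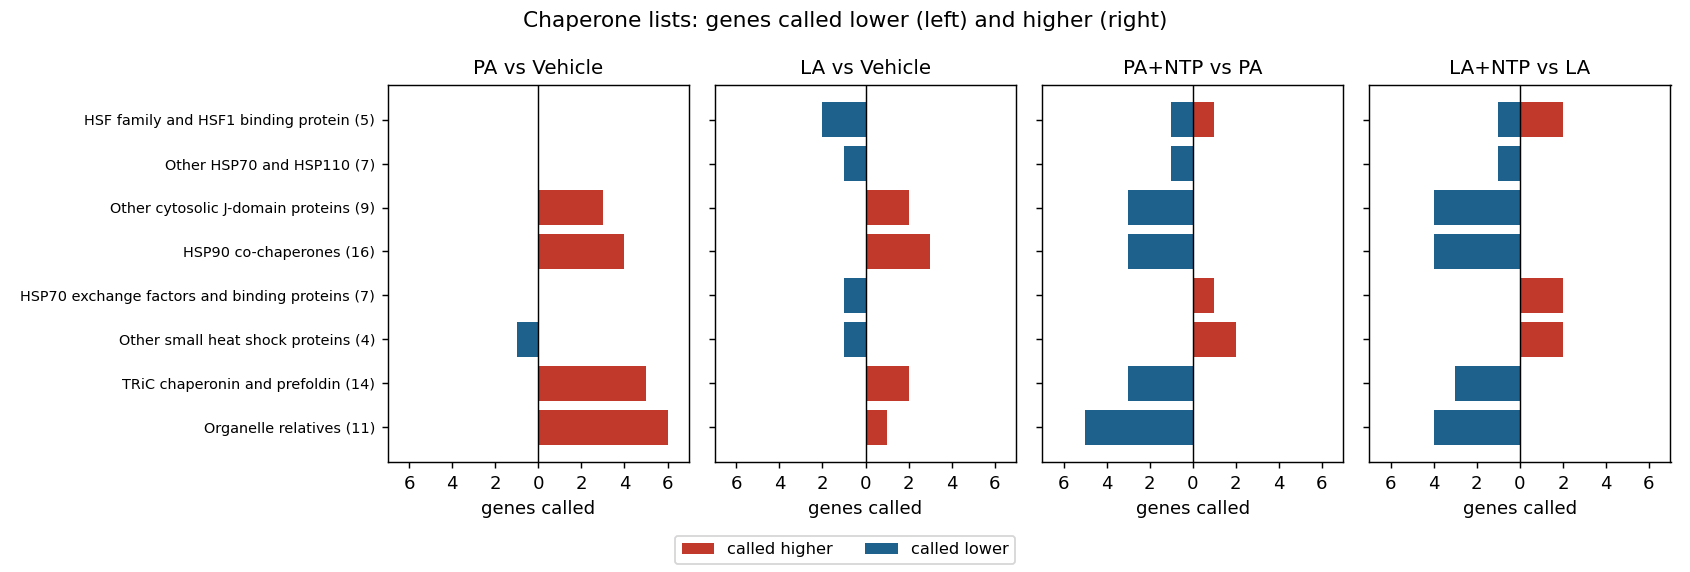
Number of genes (horizontal axis) called higher, to the right, and lower, to the left, in 8 lists of chaperone genes for 4 comparisons, with the number tested in brackets. With PA, 3 of 9 J-domain, 4 of 16 HSP90 co-chaperone, 5 of 14 chaperonin and prefoldin and 6 of 11 organelle genes were called higher, and in PA+NTP against PA 3, 3, 3 and 5 of them were called lower.

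Of 16 HSP90 co-chaperones, 4 were called higher with PA (6.00% of all genes) and 3 with LA (3.53%), and 3 were lower with NTP under PA (5.11%) and 4 under LA (7.57%). Ptges3, which encodes the p23 that stabilizes closed HSP90, was at 109.8 and 107 FPKM in Vehicle, 225 and 219 under PA, 183 and 186 under LA, 113 and 130 in PA+NTP, and 101 and 98.9 in LA+NTP. Its log2 fold changes were 1.06 (SE 0.07) for PA, 0.81 (0.07) for LA, and -0.93 (0.07) with NTP under either. Chordc1, an HSP90-binding protein, gave 0.81, 0.69, -0.91 and -0.87 (each SE 0.07). Ppid, a cyclophilin of HSP90 complexes, was called with PA (0.77), LA (0.59) and LA+NTP (-0.69), and Cacybp with PA (0.78), PA+NTP (-0.66) and LA+NTP (-0.75). With the GC trend removed, Ptges3 was called for PA (0.83) and with NTP (-0.68 and -0.59) and not for LA (0.54). The other 3 then lost each call, with Chordc1 at 0.27, 0.14, -0.37 and -0.21, Ppid at 0.47, 0.25 and -0.28, and Cacybp at 0.44, -0.30 and -0.29 in the order above. Aarsd1, named after its values were seen, gained calls with PA (0.63) and with NTP under PA (-0.80) and LA (-0.75).

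Of the 9 other J-domain proteins, 3 were called higher with PA (6.00% of all genes) and 2 with LA (3.53%), and 3 were lower with NTP under PA (5.11%) and 4 under LA (7.57%). Dnaja1, an HSP70 partner of the cytosol, was at 73.4 and 73.9 FPKM in Vehicle, 118.9 and 107 under PA, 107 and 107 under LA, 62.5 and 65.2 in PA+NTP, and 64.1 and 62.4 in LA+NTP. Its log2 fold change was 0.65 (SE 0.06) for PA, -0.88 (0.06) for PA+NTP and -0.79 (0.06) for LA+NTP, while LA against Vehicle, at 0.58, was short of the fold of 1.5. Dnajc2, which works at the ribosome, was called in all 4 comparisons (0.77, 0.61, -0.67 and -0.79). Dnaja2 was called with PA (0.65) and NTP (-0.63 and -0.69), and Dnajc7 with NTP under LA (-0.60). The second gene higher with LA was Dnajb4 (0.59), named after its values were seen. Once the trend was removed, Dnaja1 (0.34, -0.56 and -0.37), Dnaja2 (0.38, -0.36 and -0.32) and Dnajb4 (0.20) lost these calls. Dnajc2 was then called with PA alone (0.61, against 0.43, -0.51 and -0.56), and Dnajc7 with NTP under LA (-0.68).

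Of the 7 other HSP70 and HSP110 genes, 1 was called lower with LA, where 7.11% of all genes were (Hspa1l at -1.32, SE 0.34, in a gene of 0.27 to 0.82 FPKM), and 1 was lower with NTP in each FFA, Hspa2 under PA (-0.80, beside 5.11% of all genes) and Hspa4l under LA (-0.61, beside 7.57%). In the fit without the GC trend, Hspa1l (-1.15) and Hspa2 (-0.99) were called and Hspa4l (-0.11) was not.

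The chaperonin TRiC and prefoldin, which fold actin and tubulin, had 5 of 14 genes called higher with PA (6.00% of all genes) and 2 with LA (3.53%), and 3 lower with NTP under PA (5.11%) and under LA (7.57%). Pfdn4 (0.96, 0.86, -0.92 and -0.96) and Vbp1 (0.86, 0.80, -0.96 and -0.95) were called in all 4 comparisons. Cct8 was called with PA (0.66) and NTP (-0.60 and -0.68), and Cct6a with PA (0.64), as was Cct2 (0.59), named after its values were seen. In the fit without the GC trend, of these calls that of Pfdn4 with PA (0.61) was made, and its others were not (0.47, -0.56 and -0.49). Vbp1 (0.32, 0.24, -0.41 and -0.27), Cct8 (0.43, -0.36 and -0.35), Cct6a (0.49) and Cct2 (0.51) then lost each call.

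Among relatives in organelles, 6 of 11 were called higher with PA (6.00% of all genes) and 1 with LA (3.53%), and 5 were lower with NTP under PA (5.11%) and 4 under LA (7.57%). Hspa5, the BiP of the endoplasmic reticulum, was at 593 and 558 FPKM in Vehicle, 1184 and 1207 under PA, 818 and 779 under LA, 731 and 689.8 in PA+NTP, and 459 and 459 in LA+NTP. Its log2 fold change was 1.09 (SE 0.06) for PA, -0.81 (0.06) for PA+NTP and -0.84 (0.06) for LA+NTP, and it was called in these with the GC trend removed (1.02, -0.73 and -0.72). Hsp90b1, the GRP94 of the same compartment, was called in all 4 comparisons (1.09, 0.66, -0.86 and -0.97). The mitochondrial Hspd1 (0.86, -0.76 and -0.81) and Hspa9 (0.66, -0.64 and -0.80) were called with PA and with NTP under both FFAs. The remaining calls in the list, named after their values were seen, were Dnajb11 with PA (0.64) and PA+NTP (-0.61) and Dnajb9 with PA (0.60). In the fit without the GC trend, Hsp90b1 was called with PA (0.88) and NTP (-0.63 and -0.67) and not with LA (0.42), and Hspd1 kept its calls (0.77, -0.66 and -0.67). Hspa9 was then called with NTP under LA (-0.61) and not with PA (0.53) or NTP under PA (-0.50). Dnajb11 was called with PA (0.70) and with NTP under PA (-0.67) and LA (-0.59), and Dnajb9 was not called (0.26). Hyou1 (0.66) and Hspe1 (0.59) gained calls with PA, and Hspa5 (0.59) in PA against LA, named after their values were seen.

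Of 4 other small heat shock protein genes tested, 1 was called lower with PA (8.92% of all genes) and with LA (7.11%), and 2 were higher with NTP under PA (8.74%) and under LA (11.7%). Hspb6 was at 39.0 and 38.8 FPKM in Vehicle, 14.5 and 15.1 under PA, 17.9 and 19.7 under LA, 38.2 and 33.6 in PA+NTP, and 46.9 and 47.5 in LA+NTP. Its log2 fold changes were -1.35, -1.0, 1.21 and 1.29 (each SE 0.08), and it was called in all 4 with the GC trend removed (-1.09, -0.73, 0.94 and 0.94). Cryab, the αB-crystallin gene, was called with NTP (1.19, SE 0.33, and 1.07, SE 0.31) at 0.90 to 2.50 FPKM, and with the GC trend removed too (1.03 and 0.88).

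In the HSF list of 5 genes, 2 were called lower with LA (7.11% of all genes). With NTP 1 was higher (8.74%) and 1 lower (5.11%) under PA, and 2 were higher (11.7%) and 1 lower (7.57%) under LA. Hsf4 was lower with LA (-0.80) and higher with NTP (0.95 and 0.87), Hsbp1, which encodes a binding protein of HSF1, was lower with LA (-0.65) and higher with NTP under LA (0.83), and Hsf2 was lower with NTP under PA (-0.59). Hsf5 was called lower with NTP under LA (-1.71, SE 0.55), at no more than 0.2 FPKM in any library. Once the trend was removed, Hsf4 (-0.22, 0.40 and 0.14) and Hsf2 (-0.26) lost these calls, while Hsbp1 was called with LA (-0.72) and with NTP under PA (0.61) and LA (0.92), and Hsf5 with NTP under LA (-1.72). Of the 7 exchange factors and binding proteins of HSP70, 1 was lower with LA (7.11% of all genes), Bag6 (-0.62). With NTP 1 was higher under PA (8.74%), Hspbp1 (0.68), and 2 under LA (11.7%), Hspbp1 (0.65) and Bag6 (0.79). Once the trend was removed, Bag6 (-0.12 and 0.16) and Hspbp1 (0.18 and 0.00) lost these calls. Calls gained then, named after their values were seen, were those of Bag1, higher with PA (0.62) and LA (0.65) and lower with NTP under both (-0.79), and of Bag2, higher with PA (0.61).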

How the data were processed

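RNA was sequenced from 10 libraries of primary hepatocytes. Per gene and library, the authors deposited expected counts from RSEM, not normalized, and FPKM values, after alignment to build mm10 (HISAT, Bowtie2; versions not stated). Genes missing from a table were taken as 0. After rounding, the deposited expected counts went into edgeR 4.0.16 (R 4.3.3, TMM, filterByExpr dropping 3958 genes, quasi-likelihood F test, 5 groups as 1 factor). The study's own test, NOISeq, was not run. GC content and shared sequence come from GENCODE M21, promoters from RefSeq.

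Alternatives were DESeq2 1.42.0, limma 3.58.1 on log2(FPKM + 1) or log2(FPKM + 0.1), library-size scaling, no filter, no fold threshold, only the groups compared, a replicate block, a GC trend removed per library (loess, span 0.4), Hspa1a and Hspa1b summed, and each library left out. The steps were tested on simulated data, where changed genes with low counts were often missed. An added GC trend gave many false calls there until it was removed. That trend was set by hand in the PA libraries alone and was steeper than the one in the real libraries. Its outcome followed from how it was added, so it does not show which calls in the real libraries are false. The source of the trend in the real libraries was not tested. Members and lists were chosen with earlier results of these data known. By rule the text names the members, up to 4 called genes per list with the largest log2 fold changes, and the gene most like each member, at mean levels of 1 FPKM or more. The gene most like Hsf1 and the genes of 1 list are not reported here.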

Additional observations from a re-analysis of the deposited data

How the results depend on the processing

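Across 22 alternatives no value of a member that was called changed direction, while values that were not called did so for some members, such as Hspb1 and Dnajb1 with the GC trend removed, and over the 80 values of a member in a comparison calls were lost 37 times and gained 30 times. With no fold threshold the count of members called was 6 in PA against Vehicle, LA against Vehicle and PA+NTP against PA. It was 7 in LA+NTP against LA and 2 in PA against LA, and these rises follow from the setting. That setting called 3310 of all 14097 genes higher and 3101 lower in PA against Vehicle, and 2938 and 2886 in LA against Vehicle. It called 3060 and 3246 in PA+NTP against PA, 3646 and 3611 in LA+NTP against LA, and 788 and 781 in PA against LA. With the GC trend removed, the member count was 1 in LA against Vehicle, 1 in PA+NTP against PA and 0 in LA+NTP against LA. It was 3 in PA against Vehicle, where Hspa1a (1.37) and Hspa1b (0.63) were called beside Hsph1 (0.59). There Hsf1 (-0.29) and Hsp90aa1 (0.51) were not called. These counts were the same with the replicate block added. Over all genes, the unblocked fit called 146 higher and 306 lower in LA against Vehicle and 529 and 662 in PA against Vehicle. With NTP it called 512 and 361 under PA and 468 and 343 under LA. Of the calls of members, those of Hsph1 in PA against Vehicle and of Hspa1a in PA against LA (1.53) were still made with the trend removed, and the others were not. In LA against Vehicle it was 1 with library-size scaling and with each limma fit, on log2(FPKM + 1) with or without the filter and on log2(FPKM + 0.1). In PA against LA it was 0 with limma on log2(FPKM + 1), with or without the filter, and with Hspa1a and Hspa1b summed, which leaves no Hspa1a to call. For the other changes the cause was not tested.

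Leaving out each library in turn gave 3 to 4 in PA against Vehicle, 1 to 2 in LA against Vehicle, 2 to 3 in PA+NTP against PA, 4 to 5 in LA+NTP against LA and 0 to 1 in PA against LA. The lone library of a group is then assumed to vary like the others. With edgeR, DESeq2 and limma, both NTP groups against Vehicle and the difference of NTP effects had 0 called members under each alternative. In edgeR 1, 5 and 2 members were at an unadjusted p under 0.05. Of all genes, 1725 higher and 1751 lower, 1021 and 993, and 416 and 613 were at that p, in the same order.

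With the replicate number as a block, the counts were 3 and 2 for PA and LA against Vehicle, 2 and 5 for NTP under PA and LA, 0 for both NTP groups against Vehicle, 1 for PA against LA and 0 for the difference of NTP effects, the same as without it. The difference between replicates 1 and 2 of a group, taken per gene, was correlated between groups. This r ran from -0.069 to 0.127 over 10 pairs of groups. Such low values gave little sign that the numbers pair the libraries, and they do not exclude it. Replicate numbers are those of the sample labels throughout, and the deposited names carry different numbers.

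Library-size scaling moved all called genes from 498 higher and 1002 lower to 360 and 1197 in LA against Vehicle. In PA+NTP against PA it moved them from 1232 and 721 to 1492 and 518. Limma on log2(FPKM + 1), over 14148 genes, called 192 and 702 in LA against Vehicle. In PA against Vehicle it called 435 and 816, where edgeR called 846 and 1257. With NTP it called 905 and 307 under PA, and 1191 and 506 under LA, where edgeR called 1651 and 1067. Depth limits Hspa1a most, with 13.1 counts in its lowest library.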
